A study of Arabidopsis thaliana with 14 samples.

Results

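The chloroplast genome of Arabidopsis thaliana encodes a small set of proteins, and the 58 chloroplast-encoded genes described here were chosen by gene name from those that the array's annotation pairs with a probe set. They are 58 of 13365 genes with a probe set of their own. They comprise 5 genes of photosystem I, 14 of photosystem II, 11 of the NDH complex, 6 of the cytochrome b6f complex, 6 of the ATP synthase, the Rubisco large subunit gene rbcL, 3 other genes (accD, matK and clpP), 4 genes of the RNA polymerase and 8 of the ribosome. Each has 1 probe set, and the probe set of ndhB covers both copies of that gene in the inverted repeat.

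RNA was taken from the last 5 mm of the primary root of seedlings grown for 7 days on vertical agar plates in light, with 1% sucrose. All seedlings were AtIPT8/pga22 (Wassilewskija background), a line which the labels also describe as carrying a T-DNA insertion that knocks out IPT8, a cytokinin synthesis gene, so that the controls carry it too. In this line estradiol is known to induce IPT8. Medium alone, 5 µM 17-beta-estradiol or 5 µM trans-zeatin, a cytokinin, was applied as a liquid for 12 or 24 h. The 12 h control and estradiol groups have 3 arrays each, and the 4 remaining groups have 2. No untransformed line treated with estradiol is among these groups, so estradiol itself and the product of IPT8 cannot be told apart. Nothing in the labels says that replicates were separate cultures, and the p-values then measure only the spread between these samples.

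Chloroplasts and the colourless plastids of roots carry the same genome, and root plastids are known for transcribing it at a low rate. Its genes are read by a plastid-encoded polymerase, whose core the rpo genes encode, and by phage-type polymerases encoded in the nucleus; genes for photosynthesis depend mainly on the former, and the rpoB operon, accD and clpP can be read by the latter. Most plastid genes lie in shared transcription units. Plastid messages mostly lack a lasting poly(A) tail, whereas the one-cycle labelling named in the protocol primes with oligo(dT), so that a signal here depends on priming as well as on abundance. In such bulk samples fewer plastids or cells and less RNA per plastid or cell cannot be told apart.

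Signals are those of the MAS5 algorithm, on a linear scale that sets the trimmed mean of each array to 100. Tests used log2(signal + 6.3), so that changes of dim genes are understated. A gene counted as measured where at least 2 of the 14 arrays exceeded a signal of 23. Changes were tested with limma over all 15605 probe sets kept, and a gene was called where its p, adjusted by Benjamini-Hochberg, was under 0.05. Each change is a difference of means on the log2 scale with its standard error (SE), and each adjusted p below is from limma.

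RNA quality and the arrays differed between the groups. The 3'/5' ratio of the actin probe sets was 6.24 and 6.44 in the controls of 24 h and ranged between 3.71 and 4.85 on the 4 treated arrays of that time. At 12 h it was from 3.23 to 4.93 in the controls and from 2.37 to 3.31 in the treated arrays. The signal of the 25S rRNA control, another RNA without a poly(A) tail, ranged from 88 to 4410. On the second principal component, replicate 3 of the 12 h controls and replicate 1 of estradiol at 12 h lay away from all other arrays. Calls were also checked with the log2 of the 3'/5' actin ratio in the fit (the 3'/5' covariate). That fit also lowered the calls over all probe sets. At 24 h they fell from 595 to 197 with estradiol and from 541 to 78 with trans-zeatin. Between the controls they fell from 73 to 1. Of 12 listed root tip markers 1 (EXPA7) has a named probe set, and it was measured, with signals from 23.4 to 54.4. Of 18 leaf markers 1 (RCA) has a named probe set, and it was measured. The signals of the other markers were not looked up, so the labelled tissue could be checked only thinly.

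Of the 58 genes, 50 were measured. The 8 others were psbN, ndhF, ndhH, petN, atpI, rpoB, rps14 and rps16, which were left out of the tests. Their signals stayed at or below 27 on every array, and rps16 and psbN reached the highest values, 27 and 26.6. Neighbours that overlap in the gene table, psbD with psbC and atpB with atpE, may share signal. Signals of different probe sets are not compared with each other.

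Against the control of the same time, few single genes changed, while many at 24 h lay to one side. With estradiol for 24 h, 3 of 50 genes rose (psbL, psbF and petB) and none fell, where 2.28% of all probe sets kept rose, 1.53% fell and 3.81% were called. In that comparison 42 of 50 genes lay above 0 (40.2% of all probe sets) and the arrays of 31 did not overlap with the controls and were higher (19.8%). The median change was 0.53 among the 50 genes and -0.09 over all probe sets. With trans-zeatin for 24 h, 3 of 50 genes fell (rps15, rpoC2 and rpl20) and none rose, where 1.32% of all probe sets fell, 2.15% rose and 3.47% were called. There 34 of 50 genes lay below 0 (56.8% of all) and 23 were lower without overlap (31.9%), with a median of -0.38 beside -0.06 over all probe sets.

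At 12 h no gene was called with either treatment. With estradiol 4.88% of all probe sets were called, and 7 genes were higher and 1 was lower at an unadjusted p under 0.05 (9.52% and 11.3% of all). With trans-zeatin 7.54% of all probe sets were called, and 7 genes were higher and none lower at that level (9.98% and 13.3%). The median change of the 50 genes was 0.06 with estradiol and 0.16 with trans-zeatin. The 7 higher genes were psaA, psbH, psbK, ndhA, ndhI, rbcL and accD with estradiol, and psaA, petG, atpF, ndhA, ndhI, rbcL and accD with trans-zeatin. Of these, petG exceeded the minimum signal of 23 on treated arrays alone. Both comparisons share the control arrays, so the lists are not separate observations.

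The mean log2 signal over the 50 genes put the array estradiol 24 h replicate 2 highest, at 8.22. Estradiol 24 h replicate 1 followed at 7.83 and trans-zeatin 12 h replicate 1 at 7.73. The control 24 h arrays stood at 7.47 and 7.53 and those of trans-zeatin 24 h at 7.06 and 7.26, so the 3 groups at 24 h did not overlap. At 12 h the controls lay between 7.19 and 7.22, estradiol at 7.56, 7.28 and 7.04, and trans-zeatin at 7.73 and 7.05, so treated arrays lay on both sides of the controls. The spread between replicates of this mean was 0.24 (SD, pooled over the groups).

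**Figure D1:**
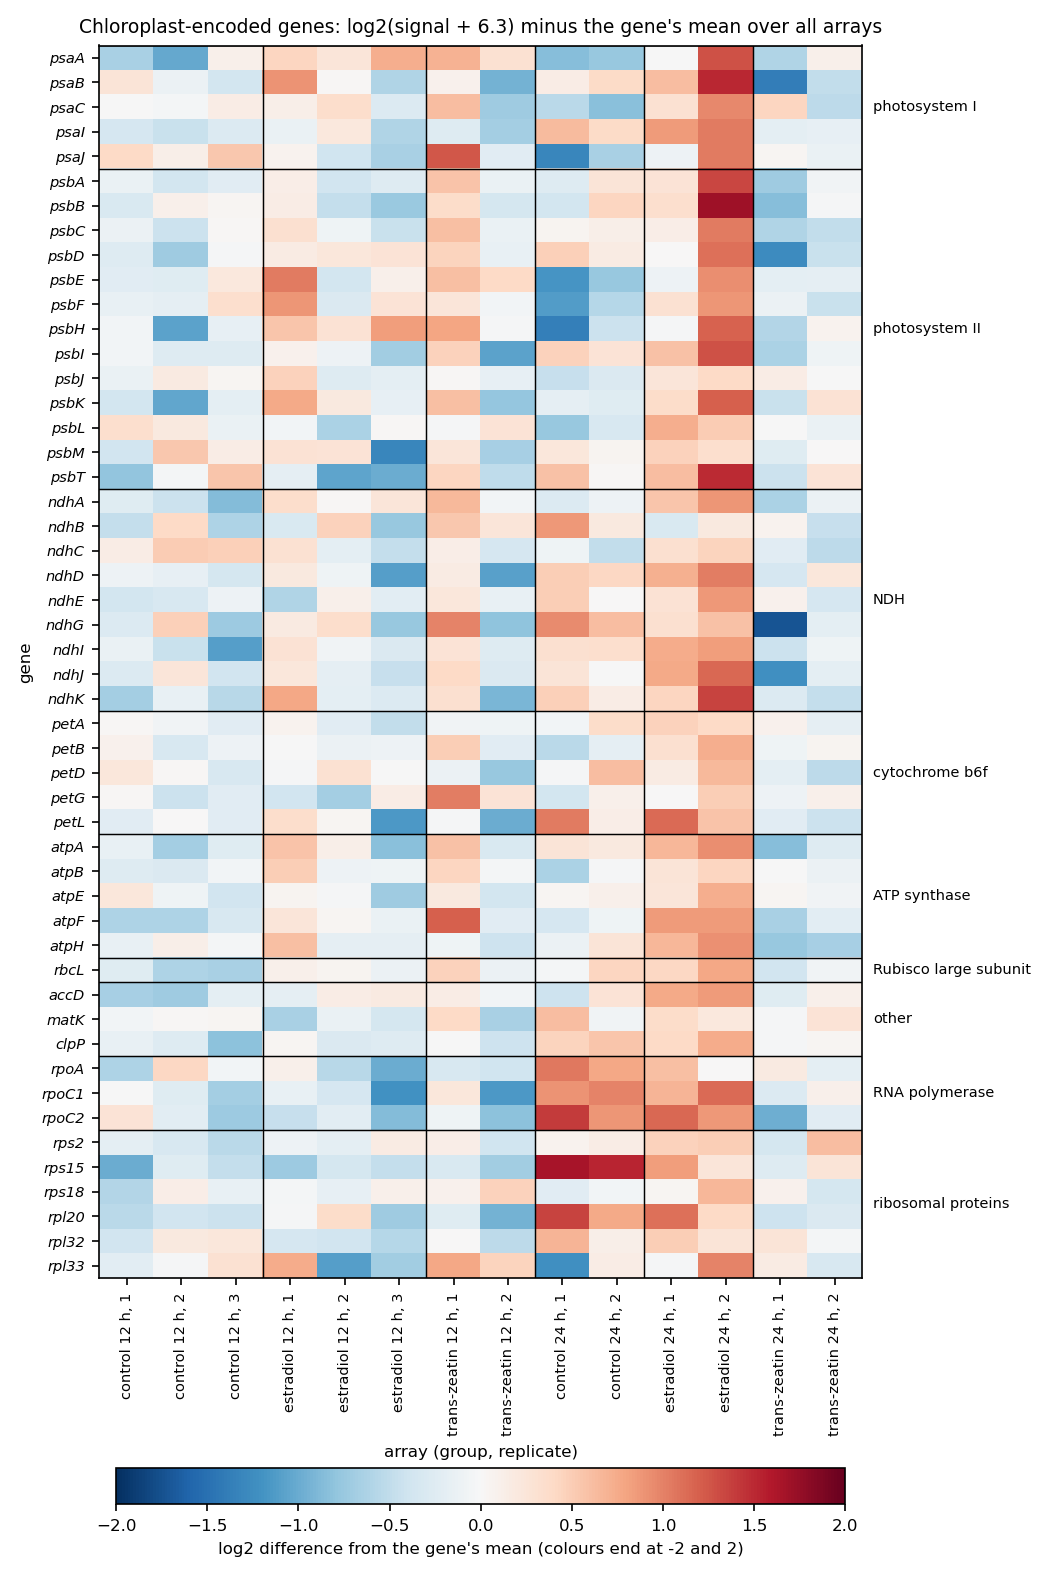
Each row is 1 of the 50 measured chloroplast-encoded genes and each column 1 of the 14 arrays; colour gives log2(signal + 6.3) minus the gene's mean over all arrays. Estradiol 24 h replicate 2, whose mean over the genes was 8.22, is above the gene's mean in most rows of the photosystems, and rpoC1 and rpoC2 are highest in the control and estradiol arrays of 24 h.

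Photosystem I uses light to move electrons to ferredoxin. Its 5 genes all lay above the control with estradiol for 24 h, all without overlap and with a median change of 1.32, but none was called (smallest adjusted p = 0.071, psaA). With trans-zeatin for 24 h, 3 lay above and 2 below the control. The gene psaA encodes one of the large reaction-centre proteins. The psaA signals at 12 h were 21.2, 14.9 and 40.1 in the controls, 51.4, 44.9 and 64.8 with estradiol, and 63.2 and 46.9 with trans-zeatin. The psaA signals at 24 h were 17.5 and 19.3 in the controls, 36.7 and 98.3 with estradiol, and 22.1 and 39.7 with trans-zeatin. Its treated arrays were above the controls without overlap in all 4 comparisons, with changes of 0.99 ± 0.34, 1.02 ± 0.38, 1.44 ± 0.42 and 0.55 ± 0.42 (adjusted p = 0.11, 0.12, 0.071 and 0.55; estradiol and trans-zeatin at 12 h, then at 24 h).

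The gene psaB encodes the partner of PsaA in the reaction centre and shares a transcription unit with it. The psaB signals at 12 h were 978, 747 and 633 in the controls, 1520, 824 and 536 with estradiol, and 869 and 419 with trans-zeatin. The psaB signals at 24 h were 905 and 1060 in the controls, 1260 and 2320 with estradiol, and 307 and 577 with trans-zeatin. At 24 h estradiol arrays lay above and trans-zeatin arrays below the controls without overlap (0.80 ± 0.46, adjusted p = 0.38, and -1.20 ± 0.46, adjusted p = 0.18), unlike psaA, whose trans-zeatin arrays were above the controls.

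The gene psaC encodes the iron-sulphur subunit. The psaC signals at 12 h were 25.7, 25.2 and 29.4 in the controls, 28.6, 34.9 and 20.2 with estradiol, and 43.1 and 13.4 with trans-zeatin. The psaC signals at 24 h were 15.8 and 11.8 in the controls, 33.5 and 56.3 with estradiol, and 37.2 and 16 with trans-zeatin. Estradiol 24 h arrays lay above the controls by 1.32 ± 0.42 (adjusted p = 0.11). The gene psaJ encodes a small membrane subunit. The psaJ signals at 12 h were 654, 540 and 727 in the controls, 523, 376 and 315 with estradiol, and 1180 and 422 with trans-zeatin. The psaJ signals at 24 h were 196 and 313 in the controls, 463 and 1030 with estradiol, and 510 and 450 with trans-zeatin. The psaJ control arrays were lower at 24 h than at 12 h without overlap (-1.34 ± 0.39, adjusted p = 0.16), and both treatments at 24 h lay above the 24 h controls (1.46 ± 0.43 and 0.93 ± 0.43, adjusted p = 0.078 and 0.28). The remaining subunit gene, psaI, differed by 0.44 ± 0.24 with estradiol and -0.69 ± 0.24 with trans-zeatin at 24 h (adjusted p = 0.34 and 0.14).

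Photosystem II splits water and passes its electrons to plastoquinone. Of its 13 measured genes 2 rose with estradiol for 24 h, all 13 lay above the control and 11 did so without overlap, with a median change of 0.81. With trans-zeatin for 24 h none was called, 6 lay above and 7 below the control, and the median was -0.26. Both genes that rose belong to the psbE-psbF-psbL-psbJ unit.

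The gene psbL encodes a small membrane subunit of photosystem II. The psbL signals at 12 h were 91.2, 82.4 and 64.3 in the controls, 67.7, 43.5 and 72.4 with estradiol, and 69.5 and 86.5 with trans-zeatin. The psbL signals at 24 h were 39.3 and 55.3 in the controls, 122 and 103 with estradiol, and 70.6 and 63.9 with trans-zeatin. Both estradiol arrays of 24 h exceeded both controls, and psbL rose by 1.16 ± 0.25, a 2.23-fold increase (adjusted p = 0.02). With trans-zeatin the arrays were also above the controls, by 0.47 ± 0.25 (adjusted p = 0.37). The psbL call ended without control 24 h replicate 1 (adjusted p = 0.19) or either estradiol 24 h array (0.11 and 0.078) and with the 3'/5' covariate (0.11).

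The gene psbF encodes the beta subunit of the cytochrome in photosystem II, and psbE its alpha subunit. The psbF signals at 12 h were 153, 151 and 218 in the controls, 320, 138 and 209 with estradiol, and 204 and 165 with trans-zeatin. The psbF signals at 24 h were 75 and 113 in the controls, 212 and 320 with estradiol, and 157 and 124 with trans-zeatin. The estradiol 24 h arrays did not overlap with the controls, and psbF rose by 1.44 ± 0.34, a 2.71-fold increase (adjusted p = 0.029). That call ended without either control 24 h array (adjusted p = 0.24 and 0.063) or estradiol 24 h replicate 2 (0.25), and with the 3'/5' covariate (0.15). The psbE signals at 12 h were 139, 137 and 189 in the controls, 343, 125 and 175 with estradiol, and 250 and 216 with trans-zeatin. The psbE signals at 24 h were 68.2 and 93.8 in the controls, 152 and 316 with estradiol, and 141 and 143 with trans-zeatin. The psbE change with estradiol for 24 h was 1.39 ± 0.39 (adjusted p = 0.064), without overlap, and the last gene of the unit, psbJ, differed by 0.69 ± 0.22 (adjusted p = 0.11).

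In the untreated root tips all 4 genes of this unit were lower at 24 h than at 12 h, by -0.88 to -0.39, and none was called (0.468% of all probe sets were called between the controls). With trans-zeatin for 24 h all 4 lay above the control, by 0.44 to 0.78. The signals of psbE, psbF and psbL with estradiol for 24 h therefore stood against controls that were below those of 12 h without overlap. Estradiol's change in psbL differed between 24 h and 12 h by 1.52 ± 0.33 in the interaction test (adjusted p = 0.15), and 0.0769% of all probe sets were called in that test.

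The gene psbH encodes a small phosphorylated subunit and psbK another small one. The psbH signals at 12 h were 118, 55 and 109 in the controls, 182, 151 and 223 with estradiol, and 217 and 120 with trans-zeatin. The psbH signals at 24 h were 43.7 and 88.8 in the controls, 120 and 284 with estradiol, and 79.3 and 128 with trans-zeatin. Estradiol arrays of psbH were above the controls without overlap at both times, by 0.98 ± 0.36 and 1.48 ± 0.45 (adjusted p = 0.14 and 0.085), and the latter was the largest change of the 50 genes in that comparison, although it was not called. The psbK signals at 12 h were 109, 65.8 and 123 in the controls, 243, 164 and 126 with estradiol, and 218 and 80.3 with trans-zeatin. The psbK signals at 24 h were 124 and 119 in the controls, 184 and 334 with estradiol, and 103 and 174 with trans-zeatin. The psbK changes with estradiol were 0.79 ± 0.36 and 0.99 ± 0.44 (adjusted p = 0.23 and 0.25).

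The genes psbM and psbT encode further small subunits. The psbM signals at 12 h were 1860, 3540 and 2690 in the controls, 2970, 2950 and 984 with estradiol, and 2880 and 1540 with trans-zeatin. The psbM signals at 24 h were 2860 and 2530 in the controls, 3350 and 3060 with estradiol, and 2050 and 2440 with trans-zeatin. Its 24 h groups differed by less than the error of the fit (0.25 ± 0.44 and -0.26 ± 0.44, adjusted p = 0.81 and 0.83). The psbT signals at 12 h were 11.5, 23.7 and 38.6 in the controls, 20.9, 8.52 and 9.07 with estradiol, and 35.1 and 15.4 with trans-zeatin. The psbT signals at 24 h were 39.6 and 25 in the controls, 41 and 80.2 with estradiol, and 16.6 and 30.8 with trans-zeatin. The psbT arrays with estradiol lay within or below the range of the controls at 12 h (-0.65 ± 0.40) and above it at 24 h (0.75 ± 0.49), with adjusted p = 0.39 and 0.44. Of the reaction-centre and core antenna genes, psbA, psbB, psbC and psbD differed by 0.81, 0.97, 0.50 and 0.23 with estradiol for 24 h and by -0.39, -0.48, -0.63 and -1.17 with trans-zeatin. None of these 4 was called in either comparison.

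**Figure D2:**
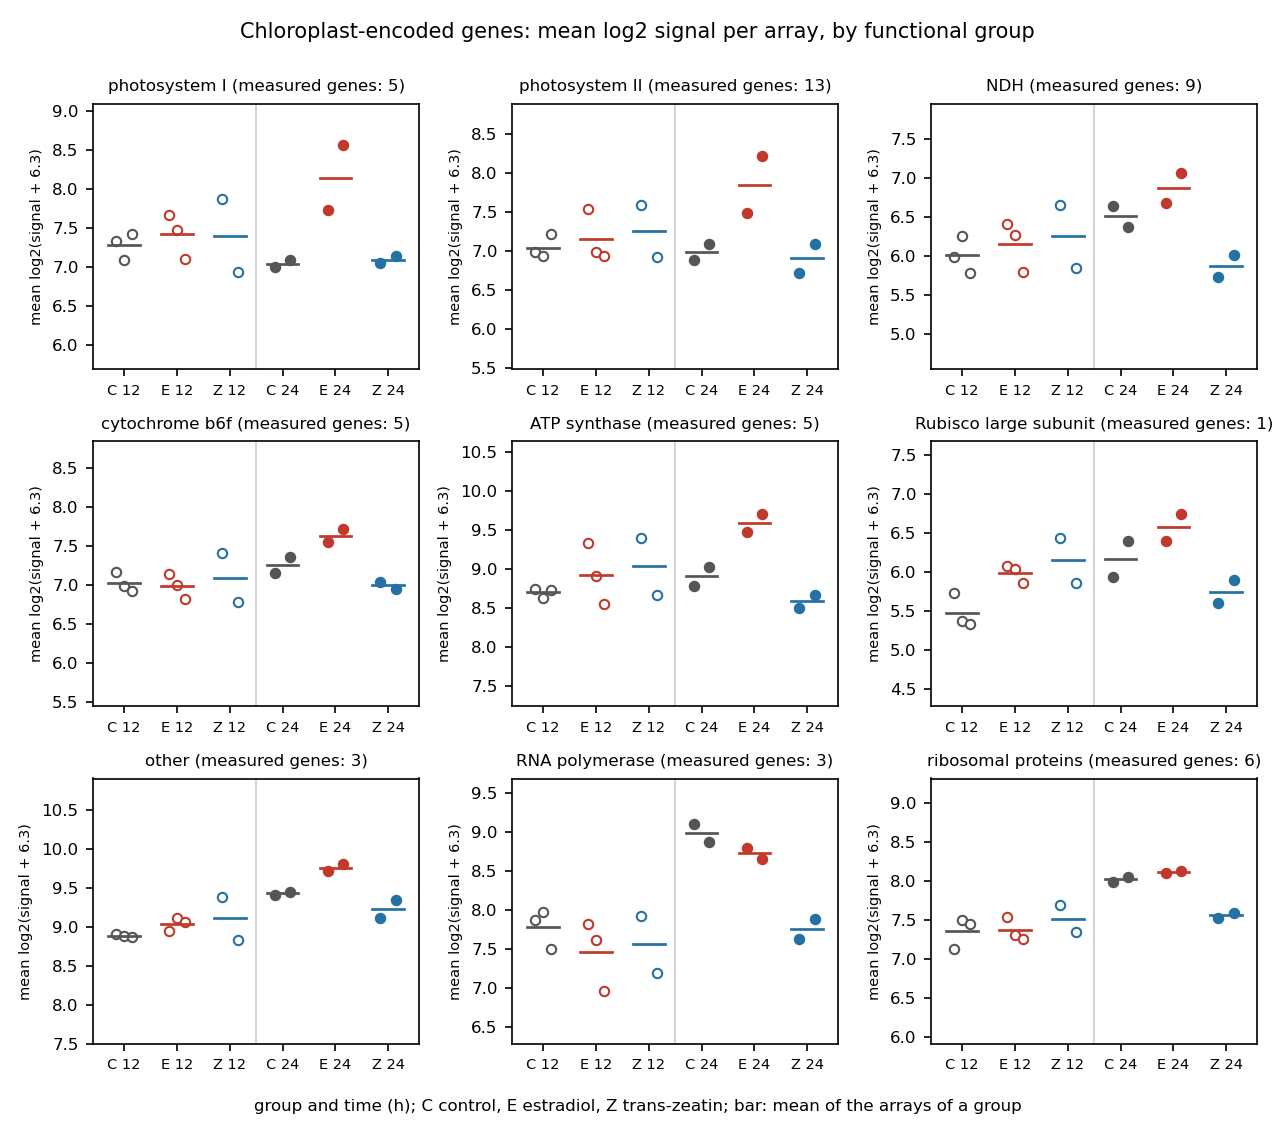
Points give the mean log2(signal + 6.3) of the measured genes of each functional group on each of the 14 arrays, bars the mean of a group of arrays, and every panel spans the same log2 range. By its bar, estradiol at 24 h stands highest in every panel except that of the RNA polymerase genes, which stand highest in control and estradiol at 24 h. For photosystem I and II, estradiol 24 h replicate 1 (7.73 and 7.48) lies below trans-zeatin 12 h replicate 1 (7.87 and 7.59).

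The cytochrome b6f complex links the photosystems. All 5 measured genes lay above the control with estradiol for 24 h, with a median of 0.27, and petB, which encodes cytochrome b6, rose. The petB signals at 12 h were 1180, 884 and 1030 in the controls, 1100, 1020 and 1030 with estradiol, and 1560 and 951 with trans-zeatin. The petB signals at 24 h were 764 and 977 in the controls, 1390 and 1840 with estradiol, and 1050 and 1150 with trans-zeatin. The estradiol 24 h arrays of petB exceeded the controls without overlap, by 0.88 ± 0.23 or 1.84-fold (adjusted p = 0.044). The call of petB held in 10 of 25 alternatives (adjusted p from 0.014 to 0.31), and it was lost, among others, without any 1 of the 4 control and estradiol arrays of 24 h (0.3, 0.097, 0.053 and 0.31) and with the 3'/5' covariate (0.25).

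The gene petD encodes subunit IV and follows petB in its unit. The petD signals at 12 h were 25.4, 21.4 and 15.5 in the controls, 20.5, 27.2 and 20.7 with estradiol, and 18.7 and 9.68 with trans-zeatin. The petD signals at 24 h were 20.4 and 35.3 in the controls, 24.1 and 36.1 with estradiol, and 17.4 and 12.6 with trans-zeatin. The petD change with estradiol for 24 h was 0.11 ± 0.35 (adjusted p = 0.9), and its arrays overlapped with the controls. The petG signals at 12 h were 18.4, 11.6 and 14.3 in the controls, 12.2, 8.78 and 20.6 with estradiol, and 42.9 and 23 with trans-zeatin. The petG signals at 24 h were 12.4 and 19.8 in the controls, 18.1 and 27.9 with estradiol, and 16.3 and 19.8 with trans-zeatin. This small subunit gene had its largest change with trans-zeatin at 12 h, 0.86 ± 0.35 without overlap (adjusted p = 0.15). All petG control signals lay below the minimum of 23. It was exceeded on treated arrays alone, among them trans-zeatin 12 h replicate 1 (42.9). The petL signals at 12 h were 87.5, 104 and 87.1 in the controls, 134, 106 and 43.1 with estradiol, and 101 and 49 with trans-zeatin. The petL signals at 24 h were 220 and 114 in the controls, 234 and 157 with estradiol, and 87.6 and 74.8 with trans-zeatin. The trans-zeatin arrays of petL, another small subunit gene, were below the 24 h controls without overlap, by -0.92 ± 0.44 (adjusted p = 0.3). The cytochrome f gene petA differed by 0.27 ± 0.20 with estradiol and -0.20 ± 0.20 with trans-zeatin.

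The ATP synthase makes ATP from the proton gradient across the thylakoid. Its 5 measured genes all lay above the control with estradiol for 24 h without overlap, with a median of 0.68, and none was called. The gene atpE encodes the epsilon subunit of its soluble part. The atpE signals at 12 h were 2720, 2180 and 1770 in the controls, 2400, 2280 and 1420 with estradiol, and 2650 and 1800 with trans-zeatin. The atpE signals at 24 h were 2390 and 2500 in the controls, 2730 and 3860 with estradiol, and 2390 and 2210 with trans-zeatin. Its estradiol 24 h arrays lay above the controls by 0.41 ± 0.27 (adjusted p = 0.45). The gene atpF encodes a stalk subunit of the membrane part. The atpF signals at 12 h were 59.5, 59.2 and 74.2 in the controls, 113, 97 and 85.4 with estradiol, and 223 and 79.9 with trans-zeatin. The atpF signals at 24 h were 73.2 and 88.5 in the controls, 175 and 176 with estradiol, and 58 and 80.4 with trans-zeatin. The treated atpF arrays lay above the controls without overlap at 12 h and with estradiol at 24 h (0.57 ± 0.27, 1.00 ± 0.31 and 1.07 ± 0.34; adjusted p = 0.26, 0.064 and 0.098), but not with trans-zeatin at 24 h (-0.22 ± 0.34). The atpF value with trans-zeatin at 12 h rested on replicate 1 (223 against 79.9), being 0.29 without it and 1.71 without replicate 2, when it was called.

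The NDH complex carries electrons from ferredoxin back to plastoquinone. With estradiol for 24 h, 7 of 9 measured genes lay above the control, with a median of 0.46. With trans-zeatin all 9 lay below it, 6 without overlap, with a median of -0.59. None was called in either comparison. The gene ndhC encodes a membrane subunit. The ndhC signals at 12 h were 580, 743 and 724 in the controls, 646, 452 and 374 with estradiol, and 575 and 410 with trans-zeatin. The ndhC signals at 24 h were 492 and 368 in the controls, 653 and 710 with estradiol, and 445 and 360 with trans-zeatin. The means of both treatments lay below the 12 h control for ndhC (-0.50 ± 0.21 and -0.48 ± 0.23, adjusted p = 0.18 and 0.23), and estradiol arrays were above the controls at 24 h (0.67 ± 0.25, adjusted p = 0.17).

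The genes ndhG and ndhB encode further membrane subunits. The ndhG signals at 12 h were 13.2, 26.6 and 7.97 in the controls, 20.5, 24 and 7.71 with estradiol, and 40.8 and 7.32 with trans-zeatin. The ndhG signals at 24 h were 39.5 and 30.1 in the controls, 23.3 and 29.3 with estradiol, and 0.851 and 14.4 with trans-zeatin. The ndhG change with trans-zeatin for 24 h, -1.75 ± 0.62 (adjusted p = 0.15), rested on signals of 0.851 and 14.4, both below the minimum of 23. The ndhB signals at 12 h were 9.09, 21.8 and 7.59 in the controls, 11, 23.1 and 6.37 with estradiol, and 24.8 and 18.9 with trans-zeatin. The ndhB signals at 24 h were 32.8 and 18.2 in the controls, 11 and 18.2 with estradiol, and 16.1 and 9.2 with trans-zeatin. The ndhB signals of treated arrays overlapped with the controls in each comparison except trans-zeatin at 24 h (-0.73 ± 0.47, adjusted p = 0.47).

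The gene rbcL encodes the large subunit of Rubisco, which fixes carbon dioxide. The rbcL signals at 12 h were 46.7, 35 and 33.8 in the controls, 61.6, 59.5 and 51.6 with estradiol, and 80.6 and 51.7 with trans-zeatin. The rbcL signals at 24 h were 55.2 and 78.2 in the controls, 78.1 and 101 with estradiol, and 42.1 and 53.4 with trans-zeatin. Both treatments lay above the 12 h controls without overlap (0.52 ± 0.21 and 0.68 ± 0.23, adjusted p = 0.17 and 0.091), and at 24 h the trans-zeatin arrays lay below the controls (-0.42 ± 0.25, adjusted p = 0.43). Of the genes with other roles, clpP encodes the proteolytic subunit of the Clp protease. The clpP signals at 12 h were 1500, 1390 and 936 in the controls, 1700, 1360 and 1390 with estradiol, and 1650 and 1250 with trans-zeatin. The clpP signals at 24 h were 2260 and 2430 in the controls, 2190 and 2770 with estradiol, and 1640 and 1700 with trans-zeatin. The untreated arrays of clpP were higher at 24 h than at 12 h by 0.90 ± 0.20 (adjusted p = 0.071), without overlap. Estradiol for 24 h left clpP at 0.07 ± 0.22 from the control. The gene accD, for a subunit of the enzyme that starts fatty acid synthesis, differed by 0.88 ± 0.25 in that comparison (adjusted p = 0.069) and matK, for a splicing factor, by 0.01 ± 0.29 (adjusted p = 0.99).

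The 4 rpo genes encode the core of the plastid-encoded polymerase, and rpoB was not measured. With estradiol for 24 h all 3 measured genes lay below the control (median -0.13), with trans-zeatin all 3 lay below it without overlap (median -1.03), and in untreated root tips all 3 were higher at 24 h than at 12 h without overlap (22.4% of all probe sets; median 1.26). Whether the group differed from the others was not tested. The gene rpoC2 encodes a large catalytic subunit. The rpoC2 signals at 12 h were 219, 155 and 106 in the controls, 129, 155 and 95.1 with estradiol, and 169 and 99.1 with trans-zeatin. The rpoC2 signals at 24 h were 484 and 337 in the controls, 406 and 334 with estradiol, and 87.9 and 153 with trans-zeatin. The rpoC2 signals with trans-zeatin at 24 h lay within or below the range of the 12 h arrays and below both 24 h controls, and rpoC2 fell by 1.74 on the log2 scale (SE 0.35; 3.35-fold lower; adjusted p = 0.013). That call ended without control 24 h replicate 1 (adjusted p = 0.15) or trans-zeatin 24 h replicate 1 (0.18), and with the 3'/5' covariate (0.37).

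Its neighbour rpoC1, which encodes the other part of that catalytic subunit pair, differed by -1.03 ± 0.41 with trans-zeatin at 24 h (adjusted p = 0.2) and by 1.26 ± 0.37 between the controls (adjusted p = 0.16). The alpha subunit gene rpoA lies in another unit. The rpoA signals at 12 h were 289, 595 and 431 in the controls, 477, 300 and 221 with estradiol, and 354 and 336 with trans-zeatin. The rpoA signals at 24 h were 936 and 767 in the controls, 677 and 450 with estradiol, and 508 and 388 with trans-zeatin. Both treatments were below the 24 h controls without overlap (-0.61 ± 0.35 and -0.92 ± 0.35, adjusted p = 0.38 and 0.18). With the 3'/5' covariate the rpoA value with trans-zeatin was 0.12 instead of -0.92, and that between the controls was -0.12 instead of 1.00, so its direction is not settled.

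The ribosomal protein genes were mixed. The gene rps15, for a protein of the small subunit, had the largest change of the 50 genes. The rps15 signals at 12 h were 29.3, 53.4 and 44.6 in the controls, 36.3, 48.9 and 44.4 with estradiol, and 50.5 and 37.4 with trans-zeatin. The rps15 signals at 24 h were 215 and 197 in the controls, 120 and 77.2 with estradiol, and 52.6 and 77.9 with trans-zeatin. The control 24 h arrays stood above all 12 other arrays. Between the controls rps15 rose by 2.15 ± 0.26, or 4.44-fold (adjusted p = 0.0018), where 0.179% of all probe sets rose, and it was the only one of the 50 genes called there. Against the 24 h control it fell by 1.59 with trans-zeatin (SE 0.28; 3.01-fold lower; adjusted p = 0.0055), and its change with estradiol was -1.04 ± 0.28 (2.06-fold lower, adjusted p = 0.057), both without overlap. The trans-zeatin call ended without control 24 h replicate 1 (adjusted p = 0.062) or trans-zeatin 24 h replicate 1 (0.098) and with the 3'/5' covariate (0.24); the call between the controls ended without control 24 h replicate 1 (0.055) and with that covariate (0.42).

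The large subunit gene rpl20, like rpoC2, had higher signals on the control and estradiol arrays of 24 h than on any other array. The rpl20 signals at 12 h were 54.3, 61.3 and 59.1 in the controls, 80.2, 107 and 47.5 with estradiol, and 68 and 39.2 with trans-zeatin. The rpl20 signals at 24 h were 217 and 143 in the controls, 182 and 110 with estradiol, and 59.4 and 65.8 with trans-zeatin. With trans-zeatin for 24 h rpl20 fell by 1.41 (SE 0.34; 2.65-fold lower; adjusted p = 0.035), without overlap, and its change with estradiol was -0.30 ± 0.34 (adjusted p = 0.68). The rpl20 call was lost in 7 of 25 alternatives, among them those without any 1 of the 4 control and trans-zeatin arrays of 24 h (adjusted p = 0.28, 0.071, 0.21 and 0.14) and with the 3'/5' covariate (0.58). Between the controls the rpl20 change was 1.50 ± 0.31 (adjusted p = 0.053). The gene rpl33, for another protein of the large subunit, follows psaJ in its unit. The rpl33 signals at 12 h were 450, 514 and 651 in the controls, 884, 241 and 320 with estradiol, and 897 and 715 with trans-zeatin. The rpl33 signals at 24 h were 221 and 583 in the controls, 515 and 1050 with estradiol, and 588 and 419 with trans-zeatin. Its replicates differed widely, and its groups at 24 h overlapped (1.02 ± 0.53 and 0.46 ± 0.53). The other 3 ribosomal genes, rps2, rps18 and rpl32, differed by -0.02 to 0.50 with estradiol and by -0.29 to 0.03 with trans-zeatin at 24 h, and none was called.

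**Figure D3:**
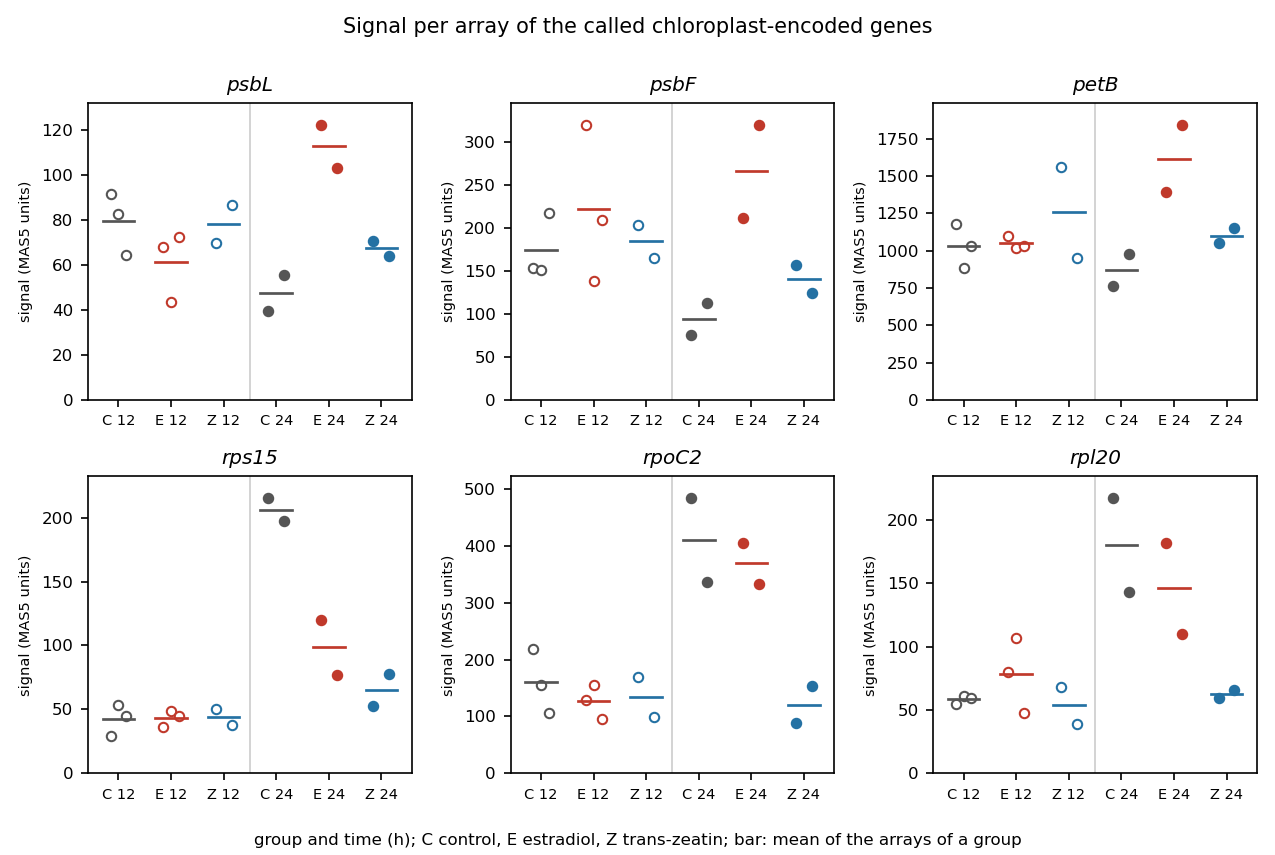
Points give the signal on each of the 14 arrays of the 6 chloroplast-encoded genes called in a comparison with the control or between the controls, and bars the mean of each group. The estradiol 24 h arrays stand above both 24 h controls for psbL, psbF and petB, and the trans-zeatin 24 h arrays stand below them for rps15, rpoC2 and rpl20.

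Set directly against each other at 24 h, the mean log2 signal was higher with estradiol than with trans-zeatin for all 50 genes, where 44.9% of all probe sets lay above 0. No gene was called, and neither were many others: 7 of 15605 probe sets, or 0.0449%, were called. At an unadjusted p under 0.05, 31 of 50 genes were higher with estradiol (2.96% of all probe sets) and none was lower (2.76%). The arrays of 38 genes did not overlap (16.8% of all), and the median was 0.85 beside -0.03 over all probe sets. The smallest adjusted p was 0.068, for atpH, a gene of the membrane ring of the ATP synthase. The atpH signals were 131 and 157 with estradiol and 44.8 and 48.2 with trans-zeatin, with 73.6 and 96.4 in the controls between them, and the difference was 1.50 ± 0.26. The largest difference in value was that of psaB, 2.01 ± 0.46 (adjusted p = 0.31). By group, the medians ran from 0.52 for the ribosomal proteins, 0.53 for cytochrome b6f and 0.56 for the other genes to 0.82 for rbcL, 0.87 for photosystem II, 0.89 for photosystem I, 0.99 for the RNA polymerase, 1.04 for NDH and 1.28 for the ATP synthase.

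The count of 50 was 48 without estradiol 24 h replicate 2, 49 without either trans-zeatin 24 h array and 48 with the 3'/5' covariate. It was 50 in the 21 other alternatives. Without estradiol 24 h replicate 2 the median was 0.66, and 15 genes had an unadjusted p under 0.05. At 12 h the treatments did not separate in this way: 18 genes lay above 0 and 32 below with a median of -0.09, none was called (0.00641% of all), and 1 was lower at an unadjusted p under 0.05, petG (3.41% of all were lower at that level and 47.5% lay below 0). All petG signals with estradiol at 12 h lay below the minimum of 23.

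**Figure D4:**
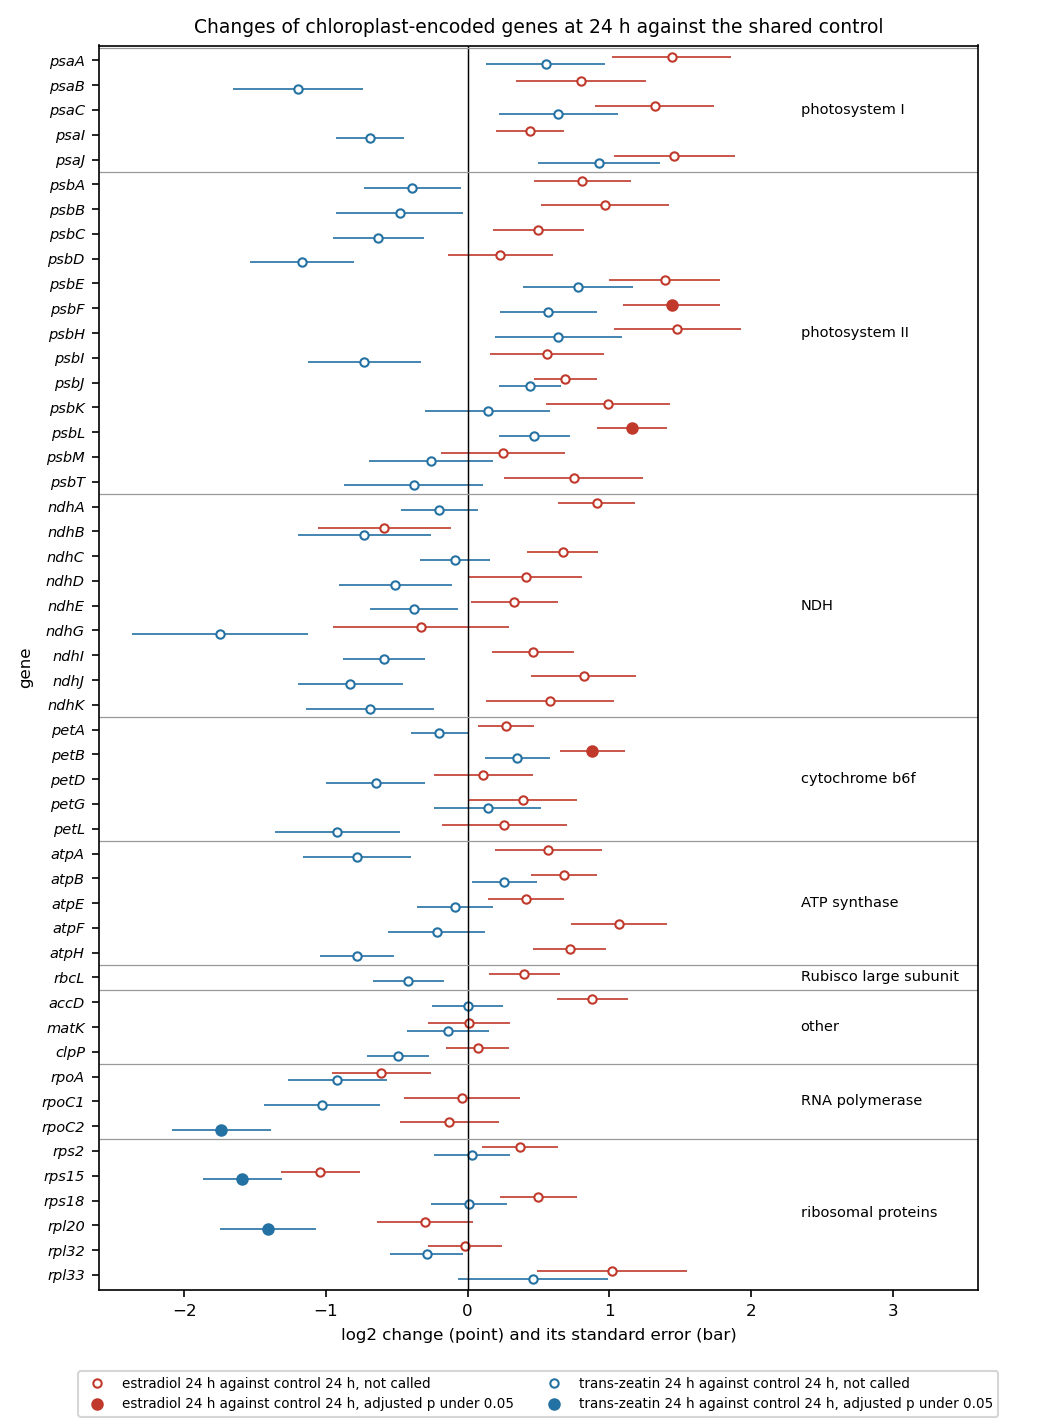
Points give the log2 change of each of the 50 measured genes at 24 h against the control, with estradiol in red and trans-zeatin in blue, bars its standard error and filled points an adjusted p under 0.05. Both comparisons share the control arrays. The estradiol value lies to the right of the trans-zeatin value in every row.

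Between the untreated groups, 38 of 50 genes were higher in value at 24 h than at 12 h (57.1% of all probe sets) with a median of 0.32 beside 0.06 over all. At an unadjusted p under 0.05, 9 were higher and 5 lower (8.54% and 6.44% of all). The 9 were rps15, rpl20, rpoC2, rpoC1, rpoA, clpP, ndhI, psaI and rbcL. The 5 were psaJ, psbE, psbF, psbL and ndhC. The median was 0.05 with the 3'/5' covariate, and the ratio itself was from 3.23 to 4.93 at 12 h and 6.24 and 6.44 at 24 h in these groups; its part in the result was not tested beyond that fit.

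Whether a treatment acted differently at 24 h and 12 h was tested as an interaction. For estradiol no gene was called, 9 were higher and 1 was lower at an unadjusted p under 0.05 (3.4% and 5.08% of all), and the median was 0.40. For trans-zeatin no gene was called, none was higher and 12 were lower at that level (4.9% and 4.63% of all), and the median was -0.55. In the trans-zeatin test 0% of all probe sets were called, and its median ranged from -0.87 to -0.22 when single arrays were left out, the extremes being without trans-zeatin 12 h replicate 2 and replicate 1.

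Genes of one transcription unit often lay on the same side with estradiol for 24 h, but there 42 of all 50 genes lay above 0. With trans-zeatin for 24 h many units were split. Whether genes of a unit moved together more than other genes was not tested. Textbook units hold 43 of the 58 genes in 13 units. With estradiol for 24 h the 5 genes of the psbB-psbT-psbH-petB-petD unit lay between 0.11 and 1.48, the 3 of ndhC-ndhK-ndhJ between 0.58 and 0.82, and the 4 measured genes of the rps2-atpI-atpH-atpF-atpA unit between 0.37 and 1.07. The 2 measured genes of the rpoB-rpoC1-rpoC2 unit lay at -0.13 and -0.04. With trans-zeatin the ndhC unit lay between -0.83 and -0.09 and the measured rpo genes between -1.74 and -1.03. The rps2 unit lay between -0.78 and 0.03, and psaA and psaB lay on either side of 0. The psbB unit lay between -0.65 and 0.64, with 2 of its 5 genes above 0.

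Nuclear genes for chloroplast proteins were set beside these values. Of 52 listed nuclear genes of the photosynthetic complexes 9 of the 11 with a named probe set were measured, and 3 of 9 rose with estradiol for 24 h (2.28% of all probe sets rose). NDHN lay the other way, with signals of 35.6 and 32.9 in the 24 h controls, 14.6 and 19 with estradiol and 16.3 on both trans-zeatin arrays. RCA, which encodes Rubisco activase and is also the measured leaf marker, had signals of 64.1 and 113 in the 24 h controls, 310 and 1020 with estradiol and 162 and 233 with trans-zeatin. It rose with estradiol by 2.64 ± 0.57, or 6.22-fold (adjusted p = 0.019). PSAN, a photosystem I subunit gene, had signals of 32.7 and 35.9 in the controls and 92.9 and 317 with estradiol, and rose by 2.14 ± 0.45 (adjusted p = 0.016). ATPC1, for the gamma subunit of the ATP synthase, had signals of 69.5 and 77.5 in the controls and 170 and 268 with estradiol, and rose by 1.47 ± 0.35 (adjusted p = 0.034). The arrays of all 3 did not overlap. Their calls ended without either control 24 h array (adjusted p from 0.058 to 0.2), without estradiol 24 h replicate 2 (from 0.18 to 0.27) and with the 3'/5' covariate (from 0.091 to 0.15). These 4 were all the losses of RCA and PSAN in 25 alternatives, whereas the ATPC1 call was lost in 9 of 25 (adjusted p up to 0.27). The size of the changes rested on single arrays: RCA was 1.79 without estradiol 24 h replicate 2 and 3.49 without replicate 1, PSAN 1.29 and 2.99, and ATPC1 1.15 and 1.78.

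Estradiol 24 h replicate 2 was the highest of the 14 arrays for all 3 genes, as it was for the mean of the 50 chloroplast-encoded genes. The same array was highest for LHCB4.1 (480), PSAE1 (493), PSBW (665), PSBY (348) and PETM (612). Among the 9 measured nuclear genes only NDHN (19 on that array) was not highest there. A further nuclear gene, LHCB4.2, was too dim to be tested and had a signal of 82.7 on that array and of 9.54 or less on the 13 others. Without that array 8 of 9 nuclear genes still lay above the control, with a median of 1.00 instead of 1.60, and 42 of 50 chloroplast-encoded genes did so, with a median of 0.32 instead of 0.53 and none called. Photosystem I then had a median of 0.80 and photosystem II of 0.32. The part of green tissue or of other cells in this array was not tested, since RCA was the sole leaf marker of 18 with a named probe set. In the 3 other comparisons with control, none of the 9 nuclear genes was called.

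**Figure D5:**
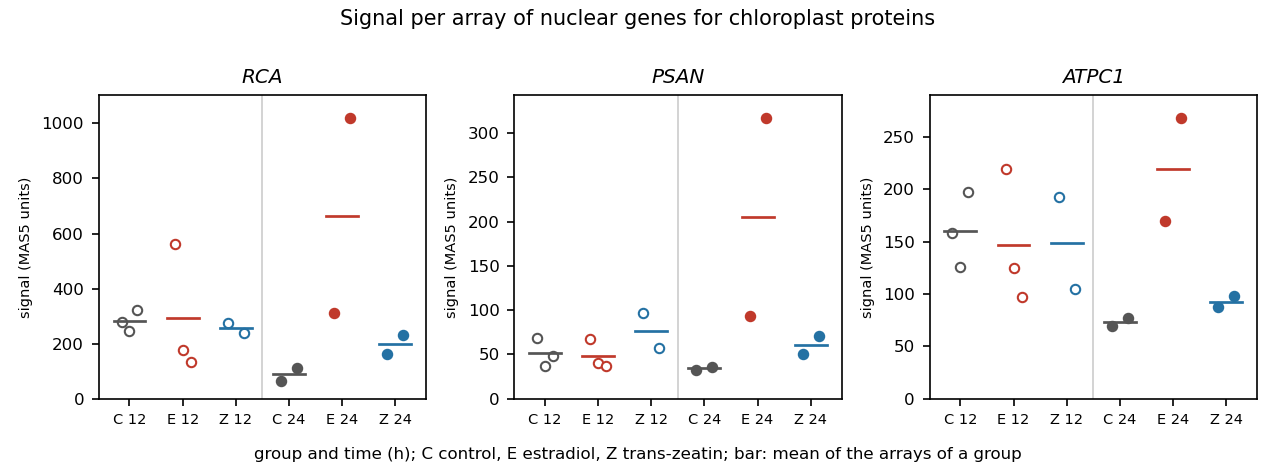
Points give the signal of RCA, PSAN and ATPC1, nuclear genes for chloroplast proteins, on each of the 14 arrays, and bars the mean of each group. All estradiol 24 h signals lie above both 24 h controls, and replicate 2 (1020, 317 and 268) is the higher in each panel.

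Of the remaining nuclear lists, 4 of 15 chlorophyll synthesis genes have a named probe set. Of these, 3 were measured (GSA1, CHLM and PORB) and none was called in any comparison with control. RPOTMP, a phage-type polymerase gene, was the only 1 of 20 genes for plastid transcription with a named probe set. FTSZ2-1 was the only 1 of 6 for plastid division. Both were measured, and neither was called in these comparisons. No named probe set exists for the 18 nuclear plastid ribosomal proteins, 5 RNA processing genes, 6 regulators of greening and 3 starch synthesis genes. Their signals are therefore not known here.

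Other organelle genes gave a further comparison. Of 18 other plastid-encoded genes 17 were measured, and all 17 were higher in value with estradiol than with trans-zeatin at 24 h (median 0.56). Of 15 mitochondrial genes 13 were measured, and 6 of 13 were higher in that comparison (median -0.09). With estradiol for 24 h all 13 mitochondrial genes lay below the control (median -0.61), 11 without overlap (33.3% of all probe sets), where 42 of the 50 chloroplast-encoded genes lay above it. With trans-zeatin 12 of 13 lay below it (median -0.49). In untreated root tips all 13 were higher in value at 24 h than at 12 h (median 0.89). None of the 13 was called in these comparisons. Mitochondrial messages, like those of plastids, mostly lack lasting poly(A) tails.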

How the data were processed

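RNA from root tips was hybridised to Affymetrix ATH1 arrays, 1 sample per array and 14 arrays in 6 groups. The deposited table holds signal intensity, linear in scale, which the authors made with MAS5 and GCOS per the submitters' processing notes (versions and settings not given in the sources used here). On every array the trimmed mean (2% at each end) was 100, and no further normalization was applied. All 22810 probe sets were read, of which the 64 control probe sets entered no test.

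The signal plus 6.3 (20th percentile) was taken as log2, and 15605 probe sets with at least 2 arrays above 23 (40th percentile) were kept. A mean for each group was fitted to the 14 arrays together in limma 3.58.1 (R 4.3.3), with an intensity trend in the variance (8 residual and 5.96 prior degrees of freedom), and 9 comparisons were tested, two-sided, with Benjamini-Hochberg adjustment over all probe sets kept. The number of arrays, 2 or 3 per group, limits the precision. The fit was tested on simulated data. Figures were drawn with matplotlib.

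Gene names come from the platform annotation and a RefSeq gene table, and no IPT8 probe set is named there, so IPT8 was not analysed here. Of 10 gene lists with 137 genes, a named probe set exists for 18 and 15 were measured. The members, lists and tests were chosen with earlier results of these data known. Values on every array are given for the gene with the highest mean log2 signal of each functional group, for called genes, and for the 3 largest changes in each direction per comparison with control. Whether replicate numbers pair the samples was checked: residuals of same-numbered arrays correlated above 0.1 in 3 of 31 cases (range from -0.27 to 0.19), so they were not used as pairs. Alternatives were another normalization, pseudocount, filter, variance prior, replicate block, choice of arrays, and a covariate (log2 of the 3'/5' actin ratio or of the 25S rRNA signal); left-out arrays for functional groups were added after seeing the data.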

Additional observations from a re-analysis of the deposited data

How the results depend on the processing

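The counts below are of the 50 measured genes that were called, and the medians are of their log2 changes. With the 3'/5' actin ratio as a covariate none was called with estradiol for 24 h (3 before), trans-zeatin for 24 h (3) or between the controls (1), at medians of 0.78, -0.12 and 0.05. Over all probe sets the calls in these comparisons fell from 595 to 197, from 541 to 78 and from 73 to 1. The rpoA values then turned to 0.12 with trans-zeatin for 24 h and -0.12 between the controls. With 25S rRNA as the covariate the counts were 2 with estradiol for 12 h, 3 with trans-zeatin for 12 h (median 0.44), 5 with either treatment for 24 h, 3 between the treatments at 24 h and 6 between the controls (median 0.60). Over all probe sets 723 and 521 were then called with estradiol and trans-zeatin for 12 h (762 and 1176 before). For 24 h these were 639 and 604, with 11 between the treatments and 123 between the controls. With only the arrays of the times compared, 10 and 8 of the 50 genes were called with estradiol and trans-zeatin for 24 h and 7 between these treatments. Over all probe sets the calls there rose from 595 to 1158, from 541 to 942 and from 7 to 61. Without both arrays that stand apart, 8 of the 50 genes were called with estradiol for 24 h and 1 between the treatments at 24 h (939 and 18 of all probe sets). Centring each array on its median gave 1 with trans-zeatin for 12 h and 7 with estradiol for 24 h (1108 and 626 of all probe sets). Quantile normalization or a pseudocount of 32 gave 2 between the controls (83 and 70 of all probe sets). Counts over all probe sets thus moved as well, and the cause of these shifts was not tested.

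With single arrays left out, the counts ran from 0 to 6 with estradiol for 24 h, from 0 to 4 with trans-zeatin for 24 h, from 0 to 2 for the untreated groups, and from 0 to 1 with trans-zeatin for 12 h and between the treatments at 24 h. The medians ran from -0.03 to 0.20 (estradiol, 12 h), -0.14 to 0.53 (trans-zeatin, 12 h), 0.32 to 0.76 (estradiol, 24 h), -0.46 to -0.23 (trans-zeatin, 24 h), -0.38 to 0.23 and 0.66 to 1.07 (between the treatments at 12 and 24 h), 0.24 to 0.37 (between the controls), and 0.25 to 0.56 and -0.87 to -0.22 (interactions of estradiol and trans-zeatin). Every median at 24 h and between the controls kept its sign in these fits. The calls over all probe sets moved in these fits too. With single control or estradiol arrays of 12 h left out, they ran from 491 to 732 with estradiol for 24 h (595 before). They ran from 479 to 658 with trans-zeatin for 24 h (541) and from 44 to 93 between the controls (73). Leaving out an array of the comparison itself lowered its total in each of these cases. With the replicate number as a block, 2 genes were called with estradiol for 24 h, petB being lost (adjusted p = 0.079), and the block changed no other count. With 2 or 3 arrays per group and the 3'/5' ratio moving with the groups at 24 h, the calls of single genes rest on few arrays.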

Other observations

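Other plastid-encoded genes that were called lay outside the 58 described above, and they are named because their number is small. With trans-zeatin for 12 h, ycf4, for an assembly factor of photosystem I, rose by 0.99 ± 0.23 on the log2 scale (SE; limma adjusted p = 0.022). Its signals were 102, 75.4 and 130 in the controls and 207 and 205 with trans-zeatin. In the same comparison rpl22, for a ribosomal protein, rose by 0.97 ± 0.27 (adjusted p = 0.045), with signals of 213, 283 and 340 in the controls and 586 and 498 with trans-zeatin. The arrays of both genes did not overlap. The ycf4 call was lost in 7 of 25 alternatives (adjusted p from 0.01 to 0.4) and that of rpl22 in 13 of 25 (from 0.028 to 0.24). Among these losses are the fits without either trans-zeatin 12 h array (adjusted p = 0.067 and 0.14 for ycf4, 0.16 and 0.16 for rpl22) and with the actin 3'/5' covariate (0.4 and 0.24).

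Between the untreated groups 2 further genes of the small ribosomal subunit rose from 12 to 24 h, as rps15 did. The rps12 signals were 91.3, 66.1 and 76.2 at 12 h and 202 and 243 at 24 h, a change of 1.45 ± 0.28 (adjusted p = 0.034). The rps7 signals were 523, 438 and 535 at 12 h and 1390 and 1240 at 24 h, a change of 1.39 ± 0.27 (adjusted p = 0.037). These arrays did not overlap. The rps12 call was lost in 13 of 24 alternatives (adjusted p from 0.0093 to 0.55) and that of rps7 in 11 of 24 (from 0.0071 to 0.7). Among these losses are the fits without either control 24 h array (adjusted p = 0.21 and 0.27 for rps12, 0.33 and 0.19 for rps7) and with the actin 3'/5' covariate (0.55 and 0.7).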
